A study of Mus musculus with 10 samples.

Results

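The enzymes that make and break down heme were followed in interscapular brown adipose tissue (iBAT) of mice whose adipocytes lack Crls1, the gene of cardiolipin synthase. They are 9 of the 15075 genes with deposited values, chosen by name for their place in the pathway, with earlier results of these data known. For heme synthesis these are Alas1, Alad, Uros, Urod, Cpox, Ppox and Fech, and for heme breakdown Hmox1 and Blvrb. All 9 passed the filter on low values, which asks for a group mean of 10 or more normalized reads per kb of counted exon, as did 11244 genes in all. The RNA came from 5 Control and 5 AdCKO mice, 1 library per mouse. Both groups carried Crls1 alleles with exon 4 flanked by loxP sites on both chromosomes. AdCKO mice also carried Adipoq-Cre, a recombinase expressed from an adipocyte promoter, so the other cells of the fat pad keep the gene, and Control mice had no Cre (the labels call them wild-type). All were C57BL/6 mice aged 20 weeks that lived at room temperature.

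Heme is built in a chain of reactions that starts and ends in the mitochondrion. ALAS1 joins glycine and succinyl-CoA in the matrix and sets the pace of the pathway outside red cell precursors. Cytosolic enzymes, among them ALAD, UROS and UROD, then build the porphyrin ring, and CPOX, PPOX and FECH at the inner mitochondrial membrane oxidize it and insert iron. Heme serves the cytochromes of the respiratory chain, of which brown fat holds a great deal. HMOX1 opens the heme ring and releases iron, carbon monoxide and biliverdin, and BLVRB is a reductase of biliverdin and flavins. HMOX1 is induced by heme and by oxidative stress, and is abundant in macrophages that clear red cells.

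The values are not counts. They are reads normalized by the authors across libraries and divided by counted exon length, so levels can be set side by side between genes. Crls1 itself averaged 1060.2 ± 191 normalized reads per kb over Control mice and 217 ± 26.4 over AdCKO mice (SD, n = 5), and the groups did not overlap. The summed level of 10 brown adipocyte markers was between 210549 and 239149 in Control but between 131489 and 157262 in AdCKO, with 7 of 10 lower and a median log2 fold change of -0.57. Most of this sum is Fabp4. As a background for the marker counts, 25.6% of all 11244 tested genes were called higher in AdCKO and 28.0% lower (limma, adjusted p under 0.01). At equal library totals 2 of the 10 markers were higher and 4 lower, against 60.6% and 9.77% of all tested genes. Their median was then -0.09, or -0.55 relative to the median of all tested genes. With quantile normalization 1 was higher and 3 lower, against 22.0% and 31.2% of all tested genes. Their median was -0.08 there, or 0.0007 relative to that of all tested genes. The summed level of 12 macrophage markers was 666 to 2053 in Control but 7663 to 10431 in AdCKO, with 11 of 12 higher. Markers of skeletal muscle set 3 libraries apart: the sum over 10 markers was 127 to 195 in Control, 239 and 254 in AdCKO replicates 3 and 5, and 7499.8, 26813 and 10531 in AdCKO replicates 1, 2 and 4, and 2 of the 10 were called higher. Calls of the 9 enzymes that changed without those 3 libraries, which leaves 5 mice against 2, are given with both values. For erythroid markers the sum over the 6 measured genes was 674 to 935 in Control with 706 to 821 in AdCKO. For 8 endothelial markers it was 1728 to 2135 in Control with 1788 to 2507 in AdCKO, and 3 of the 8 were called higher. No marker in these lists was at 0 in any library. In whole tissue, fewer cells of a type and less RNA per cell cannot be told apart.

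The sum of normalized reads over all genes of a library was 7615403 to 8171138 for Control but 5419800 to 5843024 for AdCKO. When libraries were rescaled to equal totals, the median over all tested genes therefore went from -0.01 to 0.46 on the log2 scale, a shift of 0.47. Values at equal totals are read relative to this shift.

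Promoter windows, from 250 bases before to 50 bases after the most upstream listed start, were found for 7 of the 9 genes in a RefSeq table on build GRCm38.p6. None was listed for Hmox1 or Fech, so no motif was sought in the promoters of these 2 genes. Printed here are those of Alas1, the first step and the synthesis gene called higher in AdCKO, and of Alad, Uros and Urod, 3 cytosolic steps called lower. Those of Cpox, Ppox and Blvrb were searched in the same way and are not printed. They lie at chr9:106247905-106248204 (Alas1), chr4:62520014-62520313 (Alad), chr7:133709246-133709545 (Uros) and chr4:116994364-116994663 (Urod), all on the minus strand. Each is written 5′ to 3′, and capitals mark matches, on either strand, to the NRF1 motif (GCGC, any base, TGCGC) or to the CCAAT box.
Alas1: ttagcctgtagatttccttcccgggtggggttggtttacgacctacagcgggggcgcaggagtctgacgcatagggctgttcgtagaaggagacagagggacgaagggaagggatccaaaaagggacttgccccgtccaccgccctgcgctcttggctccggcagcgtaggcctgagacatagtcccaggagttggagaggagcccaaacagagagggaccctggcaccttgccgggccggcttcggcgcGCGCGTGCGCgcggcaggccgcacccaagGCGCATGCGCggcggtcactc
Alad: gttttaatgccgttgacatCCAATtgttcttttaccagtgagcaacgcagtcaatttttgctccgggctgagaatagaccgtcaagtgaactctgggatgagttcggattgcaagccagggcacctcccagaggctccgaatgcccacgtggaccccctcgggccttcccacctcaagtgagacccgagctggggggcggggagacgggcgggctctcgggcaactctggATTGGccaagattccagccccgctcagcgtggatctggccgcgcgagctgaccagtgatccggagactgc
Uros: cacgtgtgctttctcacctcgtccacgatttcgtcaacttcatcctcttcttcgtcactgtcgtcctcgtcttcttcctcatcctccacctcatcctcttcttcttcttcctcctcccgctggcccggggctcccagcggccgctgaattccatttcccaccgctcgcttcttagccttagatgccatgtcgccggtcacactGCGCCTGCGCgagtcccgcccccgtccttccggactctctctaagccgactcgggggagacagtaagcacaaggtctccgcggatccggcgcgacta
Urod: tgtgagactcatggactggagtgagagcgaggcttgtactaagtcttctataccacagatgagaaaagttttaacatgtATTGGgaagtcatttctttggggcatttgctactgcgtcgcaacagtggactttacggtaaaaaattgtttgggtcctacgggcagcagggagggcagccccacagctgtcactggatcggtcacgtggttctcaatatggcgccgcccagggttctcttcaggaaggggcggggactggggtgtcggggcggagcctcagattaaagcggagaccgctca
NRF1 is a transcription factor of nuclear genes for mitochondrial proteins. Its motif was in 2 of the 7 windows, at bases 1 to 10 and 30 to 39 after the start of Alas1 and 47 to 38 bases before the start of Uros, and in 4.60% of all 32851 windows. The 2 genes that hold it differed in direction, Alas1 being called higher and Uros lower. The CCAAT box was in the windows of Alad, Ppox and Urod, all called lower under the authors' normalization, and in 37.4% of all windows. Sites with the letters TCAAGGTCA, which estrogen-related receptors bind, were in 0 of the 7 windows and in 0.423% of all windows. The letters TGACNNNGC, the core of the antioxidant response element, were in 0 of the 7 and in 12.4% of all, and TGATGNAA, the composite site of C/EBP and ATF proteins, in 0 of the 7 and in 3.97% of all. A match is a string of letters in a window and not a measured site.

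Heme synthesis and breakdown were unequally changed in AdCKO iBAT. Of the 9 genes, 7 were called, against 53.6% of all 11244 tested genes (25.6% higher and 28.0% lower). The test was limma at an adjusted p under 0.01 over all tested genes. Alas1 and Hmox1 were higher (2 of 9), Alad, Uros, Urod, Ppox and Fech were lower (5 of 9), and Cpox and Blvrb were not called. The median log2 fold change was -0.43 over the 9 genes and -0.70 over the 7 synthesis genes, against -0.01 over all tested genes. The groups did not overlap for 6 of the 9 genes, as for 50.9% of all tested genes (24.5% with AdCKO above and 26.4% with AdCKO below). Scaling every library to the same total gave 4 of the 9 called higher and 4 lower, where 70.3% of all genes were called, 60.6% higher and 9.77% lower. The 4 that stayed lower were Alad, Uros, Urod and Fech. Quantile normalization gave 2 higher and 5 lower, against 53.2% of all genes called, 22.0% higher and 31.2% lower. Without AdCKO replicates 1, 2 and 4, 1 of the 9 was called higher (Hmox1) and 4 lower (Alad, Uros, Urod and Fech), against 38.5% of all genes called, 18.8% higher and 19.7% lower.

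**Figure D1:**
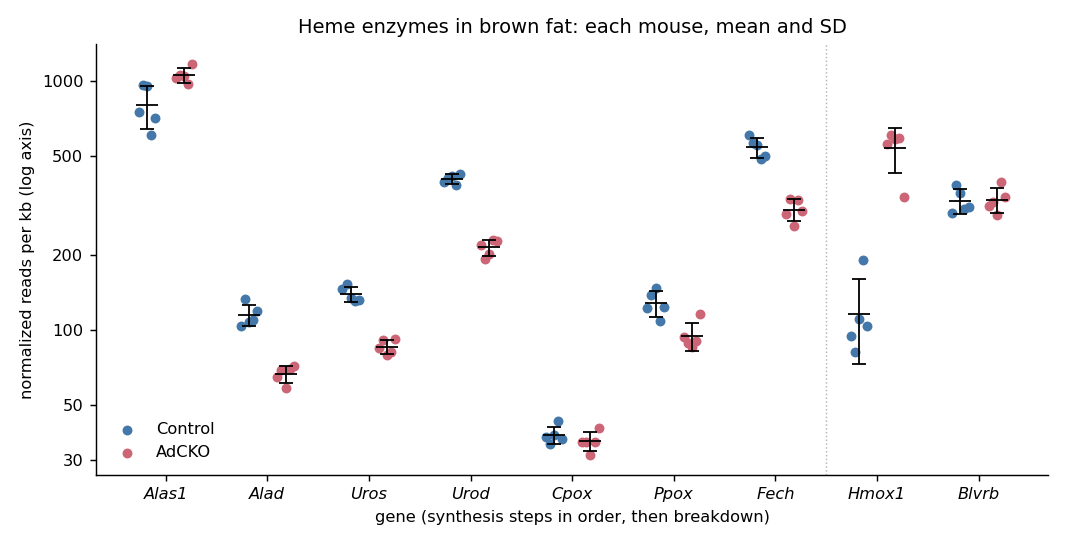
Normalized reads per kb (log axis) of the 9 heme enzymes in each of the 5 Control and 5 AdCKO mice (points), with the group mean and SD (bars). All AdCKO points of Alad, Uros, Urod and Fech lie below the Control points, those of Hmox1 and Alas1 lie above them, and the groups of Cpox, Ppox and Blvrb overlap.

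Alas1, the gene of the rate-limiting enzyme, was the most abundant of the 9 per kb in both groups and was moderately higher in AdCKO. Alas1 (NM_020559) maps to chromosome 9 in mm9, bases 106135786 to 106150285, minus strand. Its value in the 5 Control libraries was 757, 971, 955, 611 and 712 normalized reads per kb, against AdCKO values of 1034, 1057, 1050.1, 979 and 1180.3. Every AdCKO mouse stood above every Control mouse, but the lowest AdCKO value was barely above the highest Control value. The means were 801 ± 157 and 1060.2 ± 73.8 (SD, n = 5), so AdCKO stood at 132% of Control. The log2 fold change of 0.42, with SE 0.12 and a 95% interval from 0.16 to 0.69, passed the limma test (adjusted p = 0.0087, exact permutation p = 0.0079, the smallest that 5 against 5 allow). The spread was unequal, with a coefficient of variation of 19.6% in Control and 6.96% in AdCKO.

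The call of Alas1 was close to its threshold. It was lost when Control replicate 1, 4 or 5 or any single AdCKO replicate was left out, with log2 fold changes over all 10 such fits from 0.33 to 0.50 and limma adjusted p from 0.0033 to 0.025. Without AdCKO replicates 1, 2 and 4 the log2 fold change was 0.50 and the adjusted p 0.032. At equal library totals it was 0.90, which is 0.44 above the median of all genes, and with quantile normalization 0.71. Among all tested genes 23.8% had a larger log2 fold change than Alas1.

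The cytosolic steps Alad, Uros and Urod stood in AdCKO at 57.9%, 61.5% and 53.0% of their Control means. Alad encodes the enzyme that joins aminolevulinic acid into porphobilinogen. Alad (NM_008525) maps to chromosome 4 in mm9, bases 62167018 to 62181097, minus strand. Its Control values were 104, 133, 108, 110.3 and 119.8 normalized reads per kb, set against 64.6, 69.0, 58.5, 69.6 and 71.6 in AdCKO. The groups were far apart relative to their spread, with means of 115 ± 11.6 and 66.7 ± 5.20 (SD, n = 5). The log2 fold change was -0.78 with an SE of 0.08 (limma adjusted p = 5.23e-06).

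Uros encodes uroporphyrinogen III synthase, which closes the ring. Uros (NM_001302085) maps to chromosome 7 in mm9, bases 140878038 to 140900978, minus strand. Its Control values were 147, 153, 135, 131 and 132 normalized reads per kb, and its AdCKO values were 84.5, 91.2, 79.8, 81.5 and 91.9. No AdCKO mouse came near the Control range. The means were 139.5 ± 10.01 and 85.8 ± 5.55 (SD, n = 5), and the log2 fold change was -0.70 with an SE of 0.07 (limma adjusted p = 3.32e-06).

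Urod encodes the decarboxylase that turns uroporphyrinogen into coproporphyrinogen, and under the authors' normalization with all libraries it had the largest decrease of the 9 genes. Urod (NM_009478) maps to chromosome 4 in mm9, bases 116662822 to 116666980, minus strand. The Control values were 394, 411, 416, 382 and 426 normalized reads per kb and the AdCKO values 221, 193, 203, 229.6 and 229. The means were 406 ± 17.7 and 215 ± 16.2 (SD, n = 5), which leaves 53.0% of the Control mean. The log2 fold change of -0.91, with SE 0.07 and a 95% interval from -1.06 to -0.77, passed the limma test (adjusted p = 2.59e-07), and 7.44% of all tested genes had a lower one. Alad had a slightly lower log2 fold change than Urod with quantile normalization, and Fech had a lower one without AdCKO replicates 1, 2 and 4.

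The last 3 steps, at the mitochondrial inner membrane, were unequal among themselves. Cpox encodes coproporphyrinogen oxidase and was the least abundant of the 9 genes per kb. Cpox (NM_007757) maps to chromosome 16 in mm9, bases 58670321 to 58680502, plus strand. In Control it measured 37.1, 35.0, 37.8, 43.1 and 36.3 normalized reads per kb and in AdCKO 35.6, 35.7, 31.4, 35.7 and 40.5. The groups overlapped, with means of 37.8 ± 3.09 and 35.8 ± 3.21 (SD, n = 5). The log2 fold change was -0.08 with an SE of 0.08 (limma adjusted p = 0.41, exact permutation p = 0.32), and its 95% interval, -0.26 to 0.10, leaves room for a small change in either direction. This value depended on the scaling: it was 0.39 at equal library totals (limma adjusted p = 0.0010), which is -0.07 relative to the median of all genes, and -0.27 with quantile normalization (adjusted p = 0.017).

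Ppox encodes protoporphyrinogen oxidase. Ppox (NM_008911) maps to chromosome 1 in mm9, bases 173207123 to 173211317, minus strand. Its Control values were 123, 139, 148, 108.5 and 124 normalized reads per kb, and its AdCKO values were 93.5, 88.6, 85.4, 90.4 and 116. AdCKO replicate 5 stood above Control replicate 4, and the other AdCKO mice stood below all Control mice. The means were 128 ± 15.3 and 94.8 ± 12.4 (SD, n = 5), and the log2 fold change was -0.43 with an SE of 0.10 and a 95% interval from -0.66 to -0.21 (limma adjusted p = 0.0025, exact permutation p = 0.016). At equal library totals the direction turned, to 0.04 (limma adjusted p = 0.70), or -0.42 relative to the median of all genes. Without AdCKO replicates 1, 2 and 4, which leaves replicate 5 as 1 of 2 mice, the log2 fold change was -0.35 and the call was lost (adjusted p = 0.065).

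Fech encodes ferrochelatase, the iron-inserting enzyme, which itself holds an iron-sulfur cluster. Fech (NM_007998) maps to chromosome 18 in mm9, bases 64616204 to 64648720, minus strand. It measured 611, 563, 554, 488 and 502 normalized reads per kb in Control and 294, 336, 263, 333 and 302 in AdCKO. The highest AdCKO mouse was well below the lowest Control mouse. The means were 544 ± 49.5 and 306 ± 30.03 (SD, n = 5), which leaves 56.2% of the Control mean. The log2 fold change was -0.83 with an SE of 0.09 (limma adjusted p = 4.18e-06), and -0.94 without AdCKO replicates 1, 2 and 4 (adjusted p = 6.51e-05).

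Alad, Uros, Urod and Fech were called lower in each of the 10 fits that left out 1 library and under the other alternatives tried. Their log2 fold changes at equal library totals were -0.30, -0.22, -0.43 and -0.35, or -0.76, -0.68, -0.89 and -0.81 relative to the median of all genes. The summed level of brown adipocyte markers was lower in the same libraries, and its part in the decrease was not tested.

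**Figure D2:**
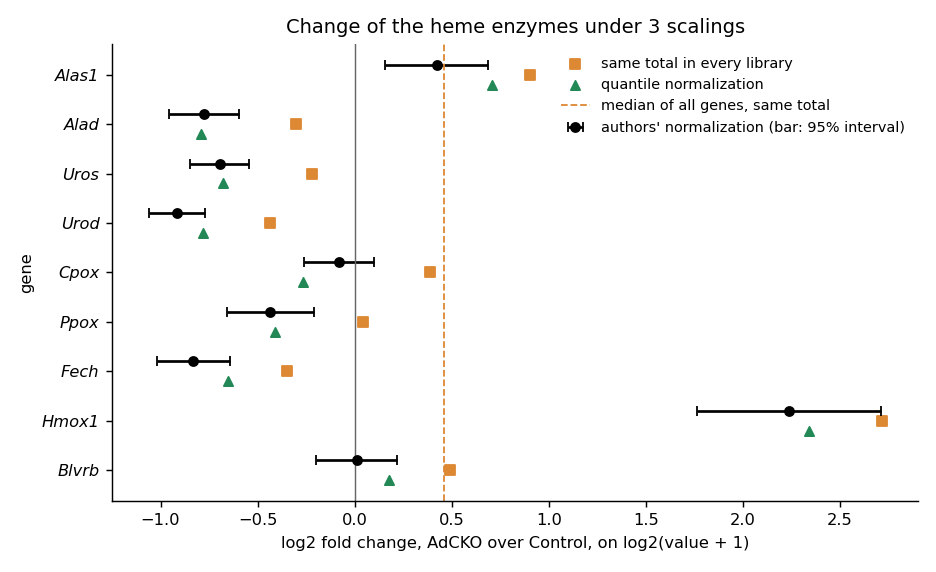
Log2 fold change, AdCKO over Control, of each heme enzyme under the authors' normalization (circles, with the 95% interval of the limma fit), at equal library totals (squares) and with quantile normalization (triangles). The dashed line marks the median of all tested genes at equal totals, 0.46, and Alad, Uros, Urod and Fech lie below 0 under all 3 scalings.

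The balance of Alas1 and the later steps within each mouse is given as a description. The ratios restate the values of their 2 genes and add no test. The ratio of 2 values from 1 library does not depend on the factor by which that library was scaled. The ratio of Fech to Alas1, the last step to the first, was 0.807, 0.580, 0.580, 0.799 and 0.705 in the Control mice and 0.284, 0.318, 0.251, 0.340 and 0.255 in the AdCKO mice. Its means were 0.694 ± 0.112 and 0.290 ± 0.039 (SD, n = 5), and the difference of mean log2 ratios was -1.25 (SE 0.14).

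The ratio of Urod to Alas1 had means of 0.520 ± 0.092 in Control and 0.204 ± 0.020 in AdCKO, with a log2 difference of -1.34 (SE 0.13). The log2 difference was -1.20 for Alad over Alas1, -1.12 for Uros over Alas1 and -0.86 for Ppox over Alas1. The AdCKO mice were below the Control mice in all 4 of these ratios. The ratio of Cpox to Alas1 was 0.049 ± 0.013 and 0.034 ± 0.0024, with overlapping ranges and a log2 difference of -0.50 (SE 0.17).

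**Figure D3:**
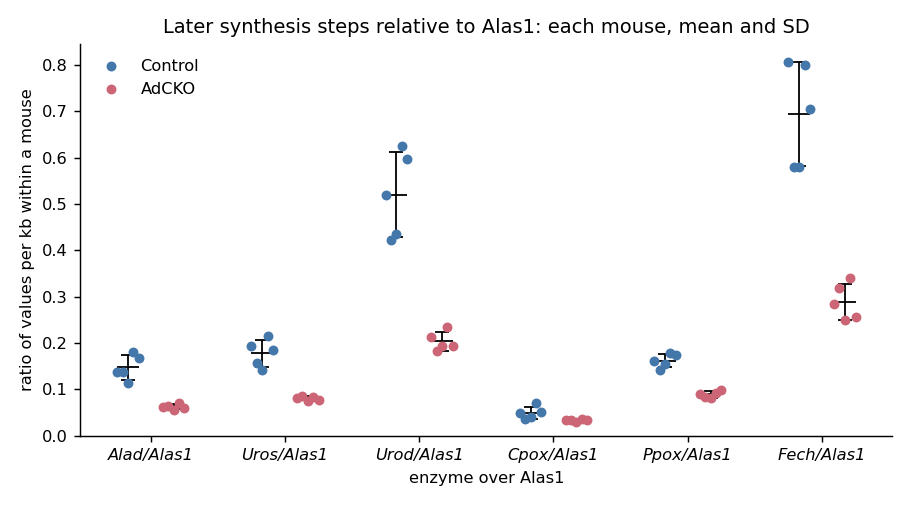
Ratio of 6 heme synthesis genes to Alas1, each computed within 1 mouse from values per kb (points), with the group mean and SD (bars). The AdCKO mice lie below the Control mice for every ratio except Cpox over Alas1, where the ranges overlap.

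Of the heme breakdown genes, Hmox1 was 4.62-fold higher in AdCKO. Hmox1 (NM_010442) maps to chromosome 8 in mm9, bases 77617517 to 77624492, plus strand. The Control libraries gave 94.4, 81.4, 111, 192 and 104 normalized reads per kb and the AdCKO libraries 562, 607, 588, 593 and 344. One mouse in each group stood towards the other group, Control replicate 4 and AdCKO replicate 5, and the groups still did not overlap. The means were 117 ± 43.6 and 539 ± 110.2 (SD, n = 5). The log2 fold change of 2.24, with SE 0.22 and a 95% interval from 1.76 to 2.71, passed the limma test (adjusted p = 2.45e-06), and 2.23% of all tested genes had a larger one. It was 2.01 without AdCKO replicates 1, 2 and 4 (adjusted p = 2.15e-04), 2.71 at equal library totals and 2.34 with quantile normalization.

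Macrophage markers moved with Hmox1. Their sum was 666, 1213, 2053, 695 and 843 normalized reads per kb in the Control libraries and 8568, 10431, 8164, 10357 and 7663 in the AdCKO libraries. The most abundant marker was Lyz2, at 469 ± 265 in Control and 5196 ± 849 in AdCKO, and the least abundant was Cd163, which was not called. AdCKO replicate 5 had the lowest Hmox1 value and the lowest marker sum of the AdCKO libraries. Control replicate 4 had the highest Hmox1 value of the Control libraries and the second lowest marker sum, and Control replicate 3, with the highest marker sum, had the second highest Hmox1 value. The part of the macrophage markers in the change of Hmox1 was not tested.

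**Figure D4:**
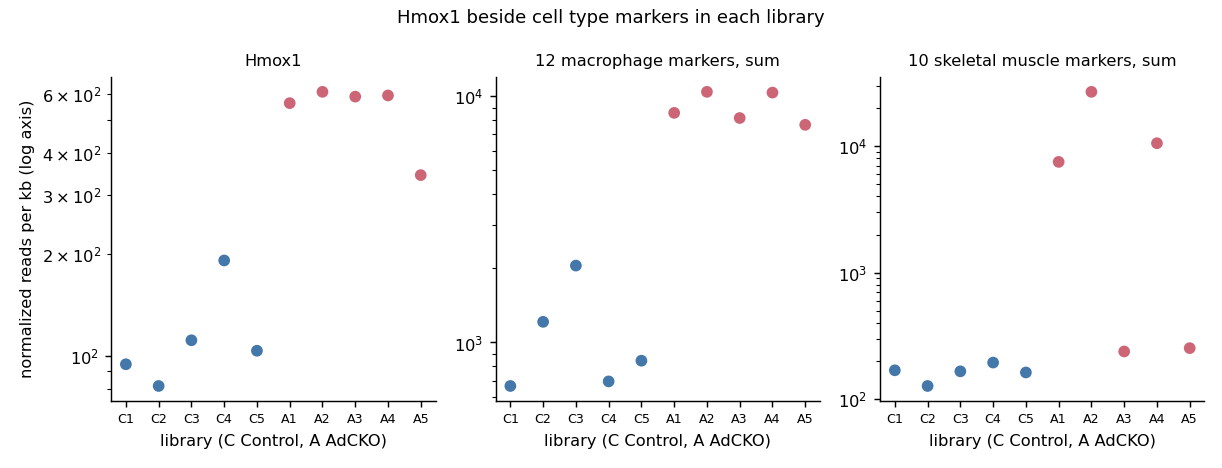
Hmox1 (left), the sum of 12 macrophage markers (middle) and the sum of 10 skeletal muscle markers (right) in each library, in normalized reads per kb on log axes, with C for Control and A for AdCKO replicates. Hmox1 and the macrophage sum are higher in all 5 AdCKO libraries, while the muscle sum is 7499.8 or more in AdCKO replicates 1, 2 and 4 and at most 254 elsewhere.

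Blvrb, a reductase of the next step, was not called. Blvrb (NM_144923) maps to chromosome 7 in mm9, bases 28232997 to 28251000, plus strand. It measured 296, 384, 357, 307 and 313 normalized reads per kb in Control and 315, 328, 289, 394 and 345 in AdCKO, and the groups overlapped. The means were 332 ± 37.2 and 334 ± 39.1 (SD, n = 5), and the log2 fold change was 0.01 with an SE of 0.10 and a 95% interval from -0.20 to 0.22 (limma adjusted p = 0.93, exact permutation p = 0.90). It was 0.49 at equal library totals (limma adjusted p = 2.61e-04), which is 0.03 above the median of all genes. The ratio of Blvrb to Hmox1, which mirrors the change of Hmox1, averaged 3.14 ± 1.10 over Control and 0.652 ± 0.206 over AdCKO mice (SD, n = 5).

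Hmox2, the constitutive heme oxygenase, averaged 519 ± 44.7 normalized reads per kb over Control and 521 ± 34.9 over AdCKO mice (log2 fold change 0.01, limma adjusted p = 0.93). In Control its mean was thus above that of Hmox1, and in AdCKO Hmox1, at 539, stood beside it. At equal library totals Hmox2 was at 0.49 (limma adjusted p = 1.41e-05), or 0.03 above the median of all genes. Blvra, the main biliverdin reductase, was at 195 ± 16.4 and 186 ± 27.5 (log2 fold change -0.08, limma adjusted p = 0.53). At equal library totals Blvra was at 0.40 (limma adjusted p = 0.0035), or -0.06 relative to the median of all genes. Without AdCKO replicates 1, 2 and 4 Blvra was at 0.08.

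The order of the 9 genes by mean level per kb differed between the groups. In Control the order was Alas1, Fech, Urod, Blvrb, Uros, Ppox, Hmox1, Alad and Cpox, and the ranges over mice were apart between Fech and Urod, between Blvrb and Uros and between Alad and Cpox. The other neighbours overlapped in range. In AdCKO the order was Alas1, Hmox1, Blvrb, Fech, Urod, Ppox, Uros, Alad and Cpox, where Hmox1 and Blvrb stood above Fech and Urod and Ppox above Uros. In AdCKO overlap of ranges was seen between Hmox1 and Blvrb, Blvrb and Fech, and Ppox and Uros. Hmox1 moved from a level above 74.1% of all genes to one above 94.6%. Over the same groups Fech moved from 93.8% to 89.8% and Urod from 91.4% to 85.7%. The coefficient of variation among the mice of a group was highest for Hmox1, at 37.4% in Control and 20.4% in AdCKO, and lowest for Urod in Control, at 4.35%.

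Beyond the 9 enzymes, 21 of 22 listed genes for other steps of the pathway and for carriers of its intermediates were tested, and 2 were higher, 6 lower and 13 not called, with a median log2 fold change of -0.11 against -0.01 for all genes. That is 8 of 21 called, where 53.6% of all tested genes were called, 25.6% higher and 28.0% lower. The same total for each library made this 11 higher and 3 lower, against 60.6% and 9.77% of all genes. Several of those that were lower act at the mitochondrial membrane. Abcb10, an inner-membrane transporter needed for heme synthesis in red cell precursors, measured 117, 119, 96.3, 105.8 and 109.6 normalized reads per kb in Control and 50.3, 50.4, 48.4, 50.9 and 50.3 in AdCKO. Every AdCKO value was below 51 and every Control value above 96. Its log2 fold change was -1.11 with an SE of 0.07 (limma adjusted p = 7.38e-08).

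Tmem14c, a membrane protein that helps protoporphyrinogen into the matrix, fell to 829.7 ± 126 from 1651 ± 235 normalized reads per kb (SD, n = 5), and the log2 fold change was -0.99 with an SE of 0.13 (limma adjusted p = 2.16e-05). Fam210b was lower with a log2 fold change of -0.91. Slc25a38, the carrier that brings in glycine for ALAS, was lower at -0.51 (adjusted p = 0.0017). At equal library totals it was at -0.04, or -0.50 relative to the median of all genes. Its call was lost without AdCKO replicates 1, 2 and 4 (-0.58, adjusted p = 0.012). The carrier Slc25a39 (0.20, adjusted p = 0.11) and the porphyrin transporter Abcb6 (-0.11, adjusted p = 0.36) were not called under the authors' normalization. At equal library totals Slc25a39 was called higher, at 0.68 (limma adjusted p = 3.53e-05), or 0.22 above the median of all genes. With quantile normalization it was also called higher, at 0.72 (adjusted p = 7.55e-06). Abcb6 was at 0.36 at equal library totals (adjusted p = 0.0078), or -0.10 relative to the median of all genes. It was at 0.08 without AdCKO replicates 1, 2 and 4. Under the authors' normalization no call was made for Slc48a1, a heme transporter of the lysosome (0.22, adjusted p = 0.21). At equal library totals Slc48a1 was called higher, at 0.70 (limma adjusted p = 5.68e-04), or 0.24 above the median of all genes. It was not called with quantile normalization (0.41, adjusted p = 0.017).

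The 2 members called higher in this list were Abcg2, a transporter that exports porphyrins, with a log2 fold change of 0.76 (limma adjusted p = 8.51e-05), and Hpx, the gene of the heme-binding plasma protein hemopexin, with 1.00 and a low level of 5.75 ± 0.432 normalized reads per kb that became 12.6 ± 1.84 in AdCKO. Hpx passed the filter, a group mean of 10 or more, only through its AdCKO mean. It would not have been tested at its Control level. Alas2, the form of the first enzyme in red cell precursors, was at 43.8 ± 16.4 in Control and 29.5 ± 3.75 in AdCKO (log2 fold change -0.50, adjusted p = 0.041), against Alas1 levels of 801 and 1060.2. With quantile normalization Alas2 was called lower (-0.71, limma adjusted p = 0.0047). At equal library totals it was at -0.03, or -0.49 relative to the median of all genes. Hba-a2, an alpha globin gene that shares reads with its near-identical copy, was at 743 ± 79.1 and 705 ± 47.7.

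Of 18 tested genes for proteins that use heme or insert it, 6 were higher and 8 lower, against 25.6% and 28.0% of all tested genes, with a median log2 fold change of -0.15. These counts became 9 higher and 4 lower when libraries shared 1 total, against 60.6% and 9.77% of all genes. Among the lower were Cyc1, the heme-bearing cytochrome c1 of complex III, whose mean was 7345 ± 758 normalized reads per kb and became 3227 ± 419 in AdCKO (log2 fold change -1.19, limma adjusted p = 1.66e-06), Sdhd, a membrane anchor of complex II, at -1.15, and Suox, sulfite oxidase, at -2.21. The higher ones included Cybb and Cyba, the subunits of the phagocyte NADPH oxidase, at 2.90 and 2.66, and Cygb, cytoglobin, at 0.78. Also called higher was Mb, myoglobin (3.51), which is 1 of the 10 skeletal muscle markers. Mb was at 1095, 2583 and 1254 normalized reads per kb in AdCKO replicates 1, 2 and 4, but at 88.1 and 117 in replicates 3 and 5. Without replicates 1, 2 and 4 Mb was not called (1.17, limma adjusted p = 0.018). The list then had 5 higher and 6 lower, against 18.8% and 19.7% of all genes. Macrophage markers rose in the same libraries as Cybb and Cyba, and their part was not tested.

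Of 17 tested genes of iron supply and iron-sulfur cluster assembly, 5 were higher and 7 lower, against 25.6% and 28.0% of all tested genes, with a median log2 fold change of -0.11. At equal library totals 7 were higher and 3 lower, against 60.6% and 9.77%. Nfs1, the desulfurase that gives the sulfur for the clusters, was lower with a log2 fold change of -0.84 (limma adjusted p = 4.11e-06). Aco1, the cytosolic aconitase that also acts as an iron regulatory protein, averaged 581 ± 67.5 normalized reads per kb over Control and 274 ± 7.05 over AdCKO mice (-1.07, adjusted p = 2.68e-07). Ncoa4, the receptor that sends ferritin to the lysosome, was lower at -0.92.

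Among the higher iron genes, Ftl1, ferritin light chain, rose to 11879 ± 1355 from 4696 ± 1006 normalized reads per kb, by 1.36 on the log2 scale (limma adjusted p = 6.88e-06), with the reservation that its processed copies in the genome can share reads. Steap3, a ferrireductase, was higher at 0.79, and Slc25a37, the mitochondrial iron importer mitoferrin-1, at 0.62 (adjusted p = 3.37e-04). The last was not called without AdCKO replicates 1, 2 and 4 (0.58, adjusted p = 0.011).

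Of 16 tested regulators of Alas1 and Hmox1, 5 were higher, 3 lower and 8 not called, with a median log2 fold change of 0.02. Their share of calls was near that of all tested genes, 53.6% (25.6% higher and 28.0% lower). The higher ones with the smallest p were Ppargc1a, a coactivator that induces Alas1, Mafk, a small MAF partner of NRF2 and BACH1, and Atf4, the stress factor. Ppargc1a averaged 101 ± 20.6 normalized reads per kb over Control and 530.5 ± 275 over AdCKO mice (log2 fold change 2.24, limma adjusted p = 3.70e-05), Mafk 50.2 ± 10.2 and 110.6 ± 5.54 (1.14, adjusted p = 3.94e-06) and Atf4 615 ± 155 and 1423 ± 277 (1.22, adjusted p = 6.30e-05). Ppargc1a was at 901 and 725 in AdCKO replicates 3 and 5 but at 452, 327 and 247 in replicates 1, 2 and 4, which carry the muscle markers, and without the latter its log2 fold change was 3.01. Those lower were Foxo1 (-0.58, but adjusted p = 0.018 without AdCKO replicates 1, 2 and 4), Keap1 (-0.63), which holds NRF2 back, and Nfe2l1 (-0.31, adjusted p = 0.0087, with overlapping groups). At equal library totals 9 regulators were higher and 0 lower in limma (0 also at an unadjusted p under 0.05), against 60.6% and 9.77% of all genes. Foxo1 was then at -0.10, Keap1 at -0.15 and Nfe2l1 at 0.17, none of them called, where the median of all genes was 0.46. Nfe2l1 was at 0.08 with quantile normalization, and its call was lost without Control replicate 2, 4 or 5, without AdCKO replicate 1, 2, 3 or 4, and without AdCKO replicates 1, 2 and 4 together (adjusted p = 0.074).

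Neither of the best-known regulators of Hmox1 was called at the level of RNA, and the amount and activity of their proteins were not measured. Bach1, the heme-sensing repressor of Hmox1, had a log2 fold change of 0.02 (SE 0.10, adjusted p by limma 0.85), and Nfe2l2, the gene of NRF2, one of 0.02 (SE 0.10, adjusted p = 0.87). Of 15 other genes known as NRF2 targets, 6 were higher and 5 lower, against 25.6% and 28.0% of all tested genes, with a median of 0.20. The higher ones included Slc7a11, the cystine importer (1.28, adjusted p = 2.29e-06), Nqo1, a quinone reductase (0.76), and Srxn1, sulfiredoxin (0.71). The lower ones included Tkt (-2.35), Taldo1 (-1.41) and G6pdx (-0.99), all of the pentose phosphate pathway. At equal library totals 10 were higher and 5 lower, against 60.6% and 9.77% of all genes.

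The genes whose log2 values ran most like those of Alas1 over the 10 libraries, by Pearson's r among all tested genes outside the 9, were Dhdds (r = 0.94), Creg1 (0.94) and 1600012H06Rik (0.93). The likeness was also present inside the groups, with r of the deviations from the group means of 0.95, 0.87 and 0.94. Dhdds and Creg1 were called higher, and 1600012H06Rik was not (log2 fold change 0.09, limma adjusted p = 0.22). For Hmox1 the nearest were Asah1, a lysosomal ceramidase, C330021F23Rik and P2rx4, an ATP-gated channel, each with r = 0.99 and with 0.87, 0.87 and 0.85 inside the groups. These r are the highest of many and describe 10 libraries, which share their scaling.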

How the data were processed

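Polyadenylated RNA of iBAT was sequenced from 5 Control and 5 AdCKO mice, grouped by the sample labels. The authors aligned reads with STAR (build mm9), took exon counts from iRNA-seq and applied DESeq2 normalization. Tool versions were not given in the sources used here, apart from the build. The deposited values are a signal, normalized reads per kb of counted exon moderated between samples, and not counts. Their low values did not fall on whole reads: 23.3% to 25.0% lay within 0.1 of a step, against 20% by chance. Sequencing depth is therefore unknown, no counting interval was made, and precision is the spread between mice. The authors also deposited log2 fold changes, adjusted p-values and lists of called genes, which were not used.

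Values plus a pseudocount of 1 were put on the log2 scale, where the change of low genes is understated. For the 11244 genes whose mean was 10 or more in either group, lmFit and eBayes of limma 3.58.1 (R 4.3.3, trend, two-sided) compared the groups, adjusted by Benjamini-Hochberg over all tested genes at a threshold of 0.01. The fit was tested on simulated data for AdCKO against Control, with 200 genes changed and 10948 tested. Of 96 genes changed by 1 on the log2 scale 92 were recovered, and of 99 changed by 0.5, 48 were, with 3 false calls. In the real data 53.6% of tested genes were called, which makes the adjustment less strict there. These rates therefore describe the simulated setting and not the real comparison. Single values were tested by exact permutation of the mice (two-sided, difference of mean log2 values). Differences of 7 ratios within a mouse, as log2 of (value + 1) over (value + 1), are descriptions. Python 3.11.15 and matplotlib 3.10.9 were used.

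The enzymes, lists and tests were chosen with earlier results of these data known. Named were all 9 enzymes, Crls1, the fixed heme steps and carriers, the 3 genes with the smallest p in each direction among the called genes of a list, the 3 genes most like Alas1 and Hmox1, and the highest and lowest marker of a cell type. Bach1, Nfe2l2 and Mb were named after their values were seen. Alternatives were an adjusted p of 0.05, each library left out, the replicate block, limma with array weights, robust trend or no trend, quantile normalization, equal library totals, no filter or a minimum mean of 1, and pseudocounts of 0.1 and 10. Leaving out AdCKO replicates 1, 2 and 4 was added after seeing the data.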

Additional observations from a re-analysis of the deposited data

Results flagged for a closer look

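Samples far from the others of their group were sought in 40 sets of 5 values, and 4 were found, where chance gives about 1 in 20. Ppox was 116 normalized reads per kb in AdCKO replicate 5, against 85.4 to 93.5 in the other AdCKO mice. Hmox1 was 192 in Control replicate 4, against 81.4 to 111 in the other Control mice, and 344 in AdCKO replicate 5, against 562 to 607 in the other AdCKO mice. Abcb10 was 48.4 in AdCKO replicate 3, against 50.3 to 50.9 in the other AdCKO mice, a gap that stands out because the rest lay so close together.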

How the results depend on the processing

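Alad, Uros, Urod, Fech and Hmox1 kept their direction and call under each of the alternatives run. Alas1 did not, and 1 of the 9 enzymes, Hmox1, was called higher with no filter, without the trend, with the replicate block and without the muscle-marked libraries, and 1 to 2 with each library left out. With the same total 4 enzymes were called higher, Cpox was at 0.39, Ppox at 0.043 and Blvrb at 0.49, and over all genes 6811 were higher and 1098 lower (86.1% and 13.9% of calls, against 47.7% and 52.3%). The median of all tested genes was then 0.46. With quantile normalization Cpox was at -0.27, and 41.3% of calls were higher and 58.7% lower. With the same total the other heme steps and carriers had 11 higher and 3 lower, heme users 4 lower, iron genes 3 lower, regulators 9 higher and 0 lower by limma, and NRF2 targets 10 higher. Regulators called lower, 3 in the main comparison, numbered 5 with array weights, 7 at an adjusted p of 0.05, 1 without the muscle-marked libraries, and 2 to 6 with each library left out (6 without AdCKO replicate 5). Without the muscle-marked libraries 3 iron genes were higher. The cause of these changes was not tested.

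The replicate numbers did not pair the mice: same-numbered deviations correlated at -0.27 to 0.10, and 0 of 5 pairs exceeded 0.1. With the replicate block 2592 genes were higher and 2838 lower. The ratios, which are descriptions, were the same with the replicate block (smallest possible p in an exact sign-flip test, 0.0625), with log2 differences over Alas1 of -1.20 (Alad), -1.12 (Uros), -1.34 (Urod), -0.50 (Cpox), -0.86 (Ppox) and -1.25 (Fech), and of -2.23 for Blvrb over Hmox1. Depth is unknown, and the number of mice limits the precision, so changes of 0.5 on the log2 scale were recovered less often in simulated data than changes of 1.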
